A study of Homo sapiens with 2 samples.

Results

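The MYC, MAX and MXD network is a set of transcription factors that share a basic helix-loop-helix leucine zipper and act as dimers. It is represented here by 10 genes, found by their symbols among 23321 genes of the deposited table, and all 10 were present. They are MYC, its partner MAX, the antagonists MXD1, MXD3, MXD4, MXI1 and MNT, the MAX partner MGA, and the parallel pair MLX and MLXIP. The members were chosen by the lower FPKM of MYC in AGS-GGT7 than in AGS-ctrl, so the values of this contrast are given as a description.

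The cells were AGS, an established line from a human gastric adenocarcinoma. In the AGS-GGT7 group the cells carried a stably transfected GGT7 plasmid (GGT7 belongs to the gamma-glutamyltransferases), and the genotype label is GGT7 ectopic expression. In the AGS-ctrl group they carried a negative control plasmid stably, and the genotype label is WT. Each group held 1 RNA-seq library at 2 weeks, and both were grown in Dulbecco's modified Eagle's medium with fetal bovine serum. The sources used here do not give the promoter of the plasmid or say whether the lines were clones or pools. With 1 library per group there is no replicate check and no test. Intervals in brackets after a ratio between the libraries are 95% Clopper-Pearson and reflect only the error of counting.

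MYC pairs with MAX and binds the E-box CACGTG in promoters of genes for growth, ribosome synthesis and metabolism, where it recruits acetyltransferases. MXD proteins and MNT also pair with MAX, bind the same element and recruit the SIN3 and histone deacetylase corepressor. MGA brings MAX into a variant polycomb complex, and MLX joins MLXIP, also called MondoA, in a branch that responds to sugar phosphates. In the stomach MYC is known for its role in dividing epithelial progenitors, and gastric tumours often carry it at raised levels.

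Since these factors share the E-box, the stretches of promoter in which a network gene itself holds one are shown first, from RefSeq promoters on GRCh38.p14. Of the 10 genes, 9 had a promoter in that table, and MYC did not. The motif CACGTG reads the same on both strands. It lay within 250 bases before a start in 3 of the 9 genes, and in 7.73% of the 27305 genes of the table. Capitals mark the E-box, and each sequence reads 5′ to 3′ on the strand of its gene. The MXD4 stretch is chr4:2262312-2262359 (minus strand), that of MNT is chr17:2401218-2401283 (minus strand), and that of MLX is chr17:42567020-42567067 (plus strand).
MXD4: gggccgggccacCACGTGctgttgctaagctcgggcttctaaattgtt
MNT: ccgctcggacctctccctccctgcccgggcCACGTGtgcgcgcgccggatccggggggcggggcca
MLX: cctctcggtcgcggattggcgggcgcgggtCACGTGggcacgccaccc
A match of letters describes the sequence and does not show that a factor binds there. Of these 3 genes MXD4 and MLX were lower in AGS-GGT7 and MNT was within counting error, with values given below.

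The library totals were 10289206 counts for AGS-GGT7 and 13482913 for AGS-ctrl. GGT7 itself had 470 counts (12.2 FPKM, which is fragments scaled by gene length and by library size) in AGS-GGT7 and 90 counts (1.78 FPKM) in AGS-ctrl, 6.84-fold higher with an interval from 5.45 to 8.67. Of 6 epithelial markers 4 reached 1 FPKM, led by the keratin genes KRT18 and KRT8, and the list summed to 168.2 FPKM in AGS-GGT7 and 186.4 FPKM in AGS-ctrl. KRT8 was at 45.4 FPKM in AGS-GGT7 and 69.96 FPKM in AGS-ctrl. The cadherin gene CDH1 was under 1 FPKM, at 116 counts in AGS-GGT7 and 94 counts in AGS-ctrl. Of 5 gastric mucosa markers only the mucin gene MUC5AC was measured, at 16.3 FPKM in AGS-GGT7 and 17.6 FPKM in AGS-ctrl. The markers of fibroblasts summed to 5.95 FPKM in AGS-GGT7 and 7.74 FPKM in AGS-ctrl (2 of 4 measured), and those of endothelium to 2.04 FPKM in AGS-GGT7 and 2.25 FPKM in AGS-ctrl (1 of 3). Of the immune markers CD68 alone was measured, at 6.08 FPKM in AGS-GGT7 and 1.11 FPKM in AGS-ctrl, and it overlaps 2 other genes. The leukocyte gene PTPRC had 5 counts in each library, and LYZ had 0 counts in AGS-GGT7 and 2 counts in AGS-ctrl. The part of these marker differences in the results was not tested.

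MYC was the network gene with the largest difference. MYC (ENSG00000136997, GRCh38 chromosome 8, 127735434 to 127741434, plus strand) had 884 counts in the AGS-GGT7 library and 2951 counts in the AGS-ctrl library. Its level was 9.58 FPKM in AGS-GGT7 and 24.4 FPKM in AGS-ctrl, and the ratio was 0.393 (0.364 to 0.423). The AGS-GGT7 library was thus the low one, and the counting intervals of the levels, 8.96 to 10.2 FPKM in AGS-GGT7 and 23.5 to 25.3 FPKM in AGS-ctrl, were far apart. In bulk RNA, fewer cells with MYC and less MYC RNA per cell cannot be told apart. On the scale used for all genes, log2((AGS-GGT7 FPKM + 1)/(AGS-ctrl FPKM + 1)), MYC was at -1.26. Genes were called measured where the higher of the libraries reached 1 FPKM, and of these 14215 genes 83 had a lower value. Among the 3277 genes with 10 FPKM or more in AGS-ctrl, 22 did. MYC passed this second limit through AGS-ctrl alone, the library where it was high. As this contrast also chose MYC, nothing is read from either count.

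**Figure D1:**
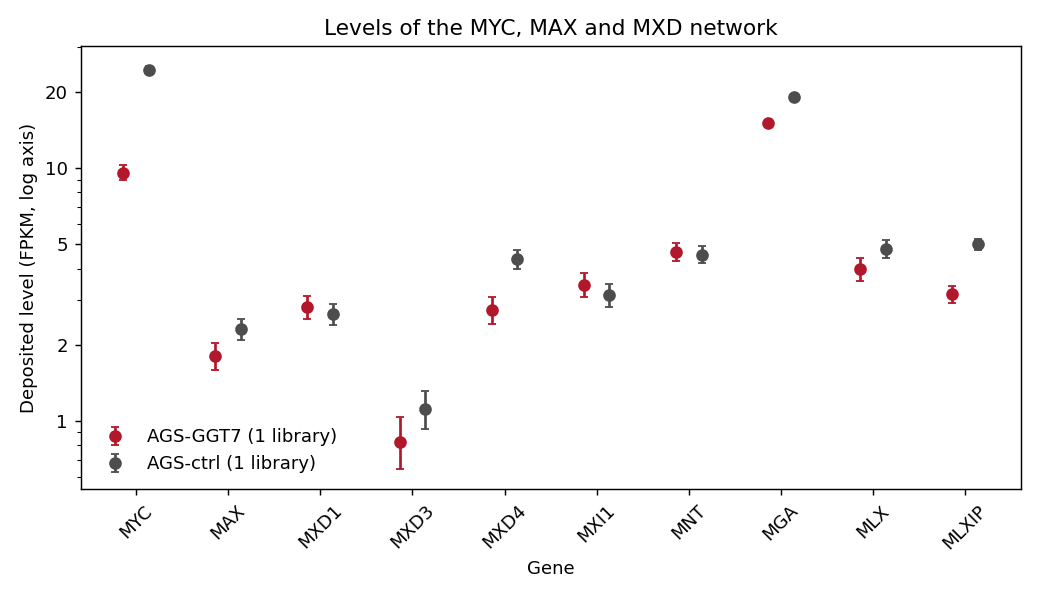
Deposited level in FPKM (log axis) of each network gene in the AGS-GGT7 library (red, left) and the AGS-ctrl library (grey, right), with bars for the exact Poisson interval of the count. MYC at 9.58 and 24.4 FPKM shows the widest gap, and the bars of MXD1, MXI1, MNT, MXD3 and MLX overlap between the libraries.

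No other network gene came near this difference. On the log2(FPKM + 1) scale MYC was the 1 member of 10 that was 1.5-fold or more lower, against 4.97% of all measured genes, and no member was 1.5-fold or more higher, against 3.9%. At 2-fold on that scale the counts were 1 lower, against 1.16%, and 0 higher, against 0.858%. In the plain ratio of FPKM, MXD4 and MLXIP also passed 1.5-fold, which makes 3 of 10 lower against 10.1% of all measured genes, and 0 higher against 7.66%. At 2-fold in that ratio MYC alone was lower, against 3.89%, and 0 were higher, against 2.82%. Since this contrast chose the members, nothing is read from these counts. The median log2 difference of the 10 genes was -0.23, beside -0.03 for all measured genes, and 7 of 10 were below 0 against 54.8%. The same 7 had a counting interval below 1, against 25.4%, and 0 had one above 1, against 19.6%. MXD3 left these 7 when the libraries were rescaled in any of 4 ways, which left 6, and no member changed its direction under them. MXD3 also counted as measured through AGS-ctrl alone, at 1.11 FPKM against 0.821 FPKM in AGS-GGT7.

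**Figure D2:**
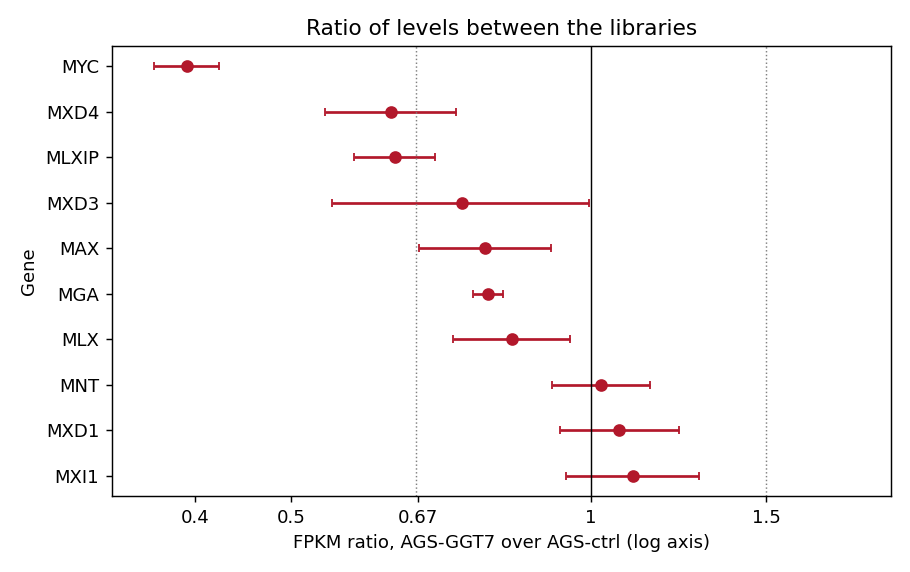
Ratio of FPKM, AGS-GGT7 over AGS-ctrl (log axis), for each network gene, with bars for the exact interval of the ratio of counts, a solid line at 1 and dotted lines at 1.5-fold. MYC at 0.393 stands alone on the left, MXD4 and MLXIP lie near 0.63, and MNT, MXD1 and MXI1 span 1.

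MAX, a shared partner of MYC, MXD proteins, MNT and MGA, was among the lowest genes of the network in the deposited FPKM of both libraries. MAX (ENSG00000125952, chromosome 14, 65006174 to 65102695, minus strand) had 276 counts and 1.798 FPKM in AGS-GGT7, against 462 counts and 2.30 FPKM in AGS-ctrl. The ratio was 0.783 (0.672 to 0.911), so the AGS-GGT7 level was lower by more than counting error. This low place rests on the deposited length, since on exonic length MAX was at 6.06 FPKM in AGS-GGT7 and 7.74 FPKM in AGS-ctrl, with the rank 6 in AGS-GGT7 and 4 in AGS-ctrl. In the deposited values MYC stood at 5.33 times the FPKM of MAX in AGS-GGT7 and at 10.6 times in AGS-ctrl. The exons of MAX overlap those of AL139022.1 in part, and reads in that stretch may have been counted for either.

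Of the antagonists, MXD4 and MXD3 were lower in AGS-GGT7 and the other three were within counting error. MXD4 (ENSG00000123933, chromosome 4, 2247432 to 2262294, minus strand), a MAX partner linked to differentiation, had 258 counts and 2.74 FPKM in AGS-GGT7, against 537 counts and 4.35 FPKM in AGS-ctrl. It was 1.59-fold lower in AGS-GGT7, with an interval from 1.37 to 1.85. MXD3, which is known from dividing cells, was the lowest gene of the network, with 73 counts (0.821 FPKM) in AGS-GGT7 and 129 counts (1.11 FPKM) in AGS-ctrl. Its ratio of 0.742 had an interval from 0.549 to 0.996 and reached almost to 1. MXD3 shares exonic bases with PRELID1 and RAB24, which further limits its value.

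MXD1, MXI1 and MNT did not differ beyond counting error. MXD1, the founding MXD gene, had 379 counts (2.81 FPKM) in AGS-GGT7 and 465 counts (2.63 FPKM) in AGS-ctrl, a ratio of 1.07 (0.930 to 1.23). MXI1, also called MXD2, had 311 counts (3.45 FPKM) in AGS-GGT7 and 370 counts (3.13 FPKM) in AGS-ctrl, a ratio of 1.10 (0.944 to 1.28). MNT, the antagonist found in most cell types, had 549 counts (4.65 FPKM) in AGS-GGT7 and 703 counts (4.54 FPKM) in AGS-ctrl, a ratio of 1.02 (0.914 to 1.15). These intervals leave room for differences of up to 1.28-fold in these libraries, so equal levels are not shown. The exons of each of the 3 are shared in part with a neighbouring gene.

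As a sum, the 5 antagonist genes were nearly level while MYC was not. They held 14.5 FPKM in AGS-GGT7 and 15.8 FPKM in AGS-ctrl, and the ratio of their summed counts per library total was 0.933 (0.874 to 0.996), an upper bound that passes 1 when the libraries are rescaled. MYC stood at 0.663 times the summed antagonist FPKM in AGS-GGT7 and at 1.55 times in AGS-ctrl. These quotients depend on the gene lengths behind the FPKM: with FPKM recomputed on exonic length they were 1.22 in AGS-GGT7 and 2.93 in AGS-ctrl, so that MYC was above the antagonists in both libraries. On the deposited FPKM the log2 of the change between the libraries was -1.23, and it lay between -1.34 and -1.12 when the counting error of MYC alone was carried through. Scaling of the libraries cancels in this quantity. The MYC share of the summed network FPKM was 19.95% in AGS-GGT7 and 34.2% in AGS-ctrl.

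MGA, the largest protein of the network, carries a T-box beside its helix-loop-helix domain. MGA (ENSG00000174197, chromosome 15, 41621224 to 41773081, plus strand) had 4942 counts and 15.05 FPKM in AGS-GGT7, against 8221 counts and 19.1 FPKM in AGS-ctrl. It was 1.27-fold lower in AGS-GGT7 (1.225 to 1.315), a narrow interval that goes with the high count, and it overlaps AC073657.1. In the list of the MGA complex, 13 of 14 measured genes were within 1.5-fold on the log2(FPKM + 1) scale, against 91.1% of all measured genes, with a median of -0.01. The exception was CBX1, a heterochromatin protein gene, with 325 counts (8.47 FPKM) in AGS-GGT7 and 1322 counts (26.3 FPKM) in AGS-ctrl, 3.10-fold lower (2.75 to 3.52). In the plain ratio of FPKM, YAF2 and E2F6, both under 2 FPKM, also passed 1.5-fold. They were 1.62-fold (1.38 to 1.91) and 1.52-fold (1.17 to 1.98) lower. That makes 3 of 14 lower, against 10.1% of all measured genes, and 0 higher, against 7.66%. RNF2, a ubiquitin ligase of the complex, had the highest ratio of the list at 1.39-fold higher (1.22 to 1.58).

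MLXIP and MLX form the branch that reads sugar phosphates. MLXIP (ENSG00000175727, chromosome 12, 122078722 to 122147347, plus strand) had 670 counts and 3.16 FPKM in AGS-GGT7, against 1383 counts and 4.98 FPKM in AGS-ctrl. It was 1.58-fold lower in AGS-GGT7, with an interval from 1.44 to 1.73. MLX had 355 counts (3.98 FPKM) in AGS-GGT7 and 559 counts (4.78 FPKM) in AGS-ctrl, a ratio of 0.832 (0.727 to 0.952), and it overlaps PSMC3IP. MLXIPL, also called ChREBP, the relative of MLXIP, was at 3.45 FPKM in AGS-GGT7 and 2.72 FPKM in AGS-ctrl, a ratio of 1.27 (1.08 to 1.49). MYCL, a relative of MYC, was under 1 FPKM with 21 counts in AGS-GGT7 and 7 counts in AGS-ctrl. The symbol MYCN was not found among the genes of the deposited table, so no level can be given for it.

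The order of levels within the network is sensitive to the gene length behind the FPKM. In the deposited values MGA stood above MYC in AGS-GGT7 (15.05 against 9.58 FPKM), while MYC stood above MGA in AGS-ctrl (24.4 against 19.1 FPKM), and these intervals did not overlap. The length implied by count and FPKM was 8965 bases for MYC, 2.99 times its exonic length of 3001 bases in GENCODE 29, and 1.81 times that length for MGA. Over 11659 genes with 50 counts or more in AGS-ctrl the median of this quotient was 1.51, and MYC was at percentile 97.6. With FPKM recomputed on the exonic length, MYC was at 28.6 (26.8 to 30.6) and MGA at 27.2 (26.5 to 28.0) in AGS-GGT7, which overlap. In AGS-ctrl the same values were 72.9 for MYC and 34.5 for MGA. Ratios between the libraries do not change with the length.

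Below MYC and MGA the genes lay close together in the deposited values. In AGS-GGT7 the order was MNT, MLX, MXI1, MLXIP, MXD1, MXD4, MAX and MXD3, and each of MLX to MXD4 had an interval overlapping that of the gene above it. MAX and MXD3 were each below their neighbour by more than counting error in these values, but on exonic length MAX at 6.06 FPKM (5.36 to 6.81) was above MLXIP and MXD4 in AGS-GGT7, and its interval overlapped that of MXD1 at 5.80 FPKM (5.23 to 6.41). In AGS-ctrl the order was MLXIP, MLX, MNT, MXD4, MXI1, MXD1, MAX and MXD3, and the intervals of MLX, MNT, MXD4, MXD1 and MAX overlapped that of the gene above. MLXIP therefore had the rank 6 in AGS-GGT7 and 3 in AGS-ctrl in the deposited values. On exonic length its rank was 8 in AGS-GGT7 and 5 in AGS-ctrl.

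**Figure D3:**
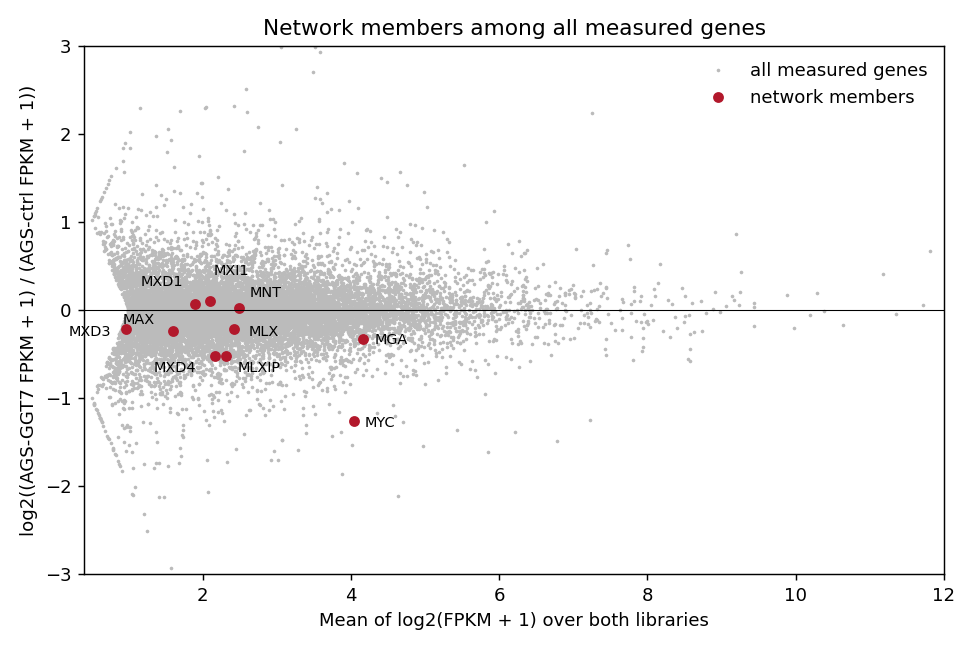
Mean level against the log2 difference, AGS-GGT7 over AGS-ctrl, of log2(FPKM + 1) for 14215 measured genes (grey) and the 10 network genes (red); 12 genes lie outside the axes. MYC at -1.26 lies below most genes of its level, and the other 9 lie inside the cloud.

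None of the 10 nearest measured protein-coding genes on the chromosome of MYC, 5 on each side, was as low as MYC. Below 0 were 6 of them, against 54.8% of all measured genes, and above 0 were 4, against 45.2%. The same 6 had a counting interval of the ratio below 1, against 25.4%. FAM84B and ASAP1 had one above 1, as did 19.6% of all measured genes. The median of the 10 was -0.19, beside -0.03 for all measured genes. The nearest, FAM84B at 1.18 megabases before MYC, had 820 counts (12.75 FPKM) in AGS-GGT7 and 869 counts (10.3 FPKM) in AGS-ctrl, a ratio of 1.24 (1.12 to 1.36). SQLE, an enzyme of cholesterol synthesis at 2.74 megabases before MYC, was the only neighbour past 1.5-fold. On the log2(FPKM + 1) scale that makes 1 of 10 lower, against 4.97% of all measured genes, and 0 higher, against 3.9%. SQLE had 474 counts (8.003 FPKM) in AGS-GGT7 and 1382 counts (17.8 FPKM) in AGS-ctrl, a ratio of 0.449 (0.404 to 0.499). PVT1, the noncoding RNA gene next to MYC, added to the named genes after its value was seen, had 622 counts (5.35 FPKM) in AGS-GGT7 and 832 counts (5.46 FPKM) in AGS-ctrl, a ratio of 0.980 (0.882 to 1.09).

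**Figure D4:**
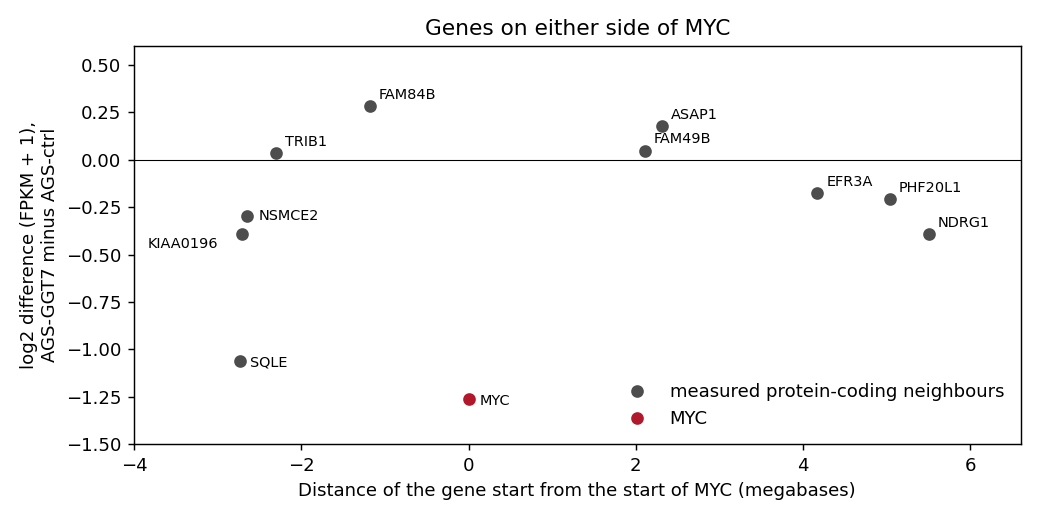
Log2 difference of (FPKM + 1), AGS-GGT7 minus AGS-ctrl, against the distance of the gene start from that of MYC in megabases, for MYC (red) and the 10 nearest measured protein-coding genes (grey). Apart from SQLE at -1.06, the neighbours lie between -0.39 and 0.28, above MYC at -1.26.

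With 2 libraries, likeness to MYC can only mean a near pair of levels. The protein-coding genes nearest to MYC in the plane of the 2 log2 FPKM values were CBX1, ZBTB4, CYB5B, ARF3 and OTULIN, at distances from 0.208 to 0.419. ZBTB4 was at 8.03 FPKM in AGS-GGT7 and 22.65 FPKM in AGS-ctrl.

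Of 20 measured genes that act on MYC transcription, 19 were within 1.5-fold on the log2(FPKM + 1) scale, a share near the 91.1% of all measured genes, with a median of -0.05. CTNNB1, the beta-catenin of WNT signalling, had a ratio of 0.954 (0.897 to 1.01). CNBP, a zinc finger protein known to bind nucleic acids at the MYC promoter, was the exception, with 5813 counts (80.9 FPKM) in AGS-GGT7 and 2365 counts (25.1 FPKM) in AGS-ctrl, 3.22-fold higher (3.07 to 3.38). TCF7L2, the DNA-binding partner of beta-catenin, was 1.798-fold higher (1.52 to 2.13) at a low level, 2.59 FPKM in AGS-GGT7 and 1.44 FPKM in AGS-ctrl. NME2 was lowest in the list at 1.39-fold lower (1.29 to 1.502), and it shares sequence with a read-through gene and a pseudogene.

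Among RNA-binding and translation factors of MYC mRNA, 12 of 13 genes were within 1.5-fold on the log2(FPKM + 1) scale, against 91.1% of all measured genes, with a median of -0.11. EIF4E, the cap-binding protein and itself a known MYC target, had 196 counts (1.19 FPKM) in AGS-GGT7 and 613 counts (2.84 FPKM) in AGS-ctrl, 2.39-fold lower (2.03 to 2.82). EIF4EBP1, which binds and restrains EIF4E protein, had 709 counts (64.2 FPKM) in AGS-GGT7 and 668 counts (46.2 FPKM) in AGS-ctrl, 1.39-fold higher (1.25 to 1.55). HNRNPD, which encodes the RNA-binding protein AUF1, had the highest ratio at 1.42 (1.31 to 1.535) and overlaps another gene. The RefSeq promoter of EIF4E holds 2 E-boxes within 250 bases, at chr4:98929341-98929370 and chr4:98929188-98929217 (minus strand), in stretches that GENCODE 29 counts as exonic. They are shown because EIF4E had the lowest value of this list, with the E-box in capitals.
EIF4E distal: ctacccatcggcCACGTGaccagtcctttt
EIF4E proximal: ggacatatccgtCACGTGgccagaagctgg
EIF4E overlaps the pseudogene TBCAP3, which limits its value.

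Turnover genes of MYC protein had a median of 0.04 over 17 measured members, with 15 within 1.5-fold on the log2(FPKM + 1) scale, against 91.1% of all measured genes. SKP2, a ubiquitin ligase subunit that acts on MYC, had 1179 counts (12.9 FPKM) in AGS-GGT7 and 2652 counts (22.1 FPKM) in AGS-ctrl, a ratio of 0.583 (0.543 to 0.624). USP22, a deubiquitinase, was 1.78-fold higher (1.66 to 1.91) and overlaps 2 other genes. FBXW7, the ligase subunit that reads phosphorylated MYC, had a ratio of 1.05 (0.884 to 1.24) with an antisense gene over part of it, and GSK3B, the kinase that marks MYC for it, 1.36 (1.27 to 1.45). RNA levels do not show the amount or turnover of MYC protein, which was not measured here.

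All 18 coactivator genes of MYC were within 1.5-fold on the log2(FPKM + 1) scale, as were 91.1% of all measured genes. Their median was -0.08, and 15 were below 0, against 54.8% of all measured genes. Their FPKM ratios ran from HCFC1, a chromatin cofactor gene, at 0.833 (0.797 to 0.871) to RUVBL1, a helicase subunit, at 1.23 (1.125 to 1.35). TRRAP, the scaffold that MYC binds, had a ratio of 0.955 (0.909 to 1.00). All 21 genes of the SIN3 and histone deacetylase corepressor, which the antagonists recruit, were within 1.5-fold on that scale too, with a median of -0.06. SIN3A, which binds the MXD proteins directly, had a ratio of 0.872 (0.810 to 0.939), and SUDS3 the lowest ratio, 0.805 (0.732 to 0.885). SAP30L was the highest with a ratio of 1.57 (1.28 to 1.92), from 220 counts in AGS-GGT7 and 184 counts in AGS-ctrl. In the plain ratio of FPKM it was thus the 1 gene of 21 past 1.5-fold higher, against 7.66% of all measured genes.

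Of 72 measured MYC-activated genes in 3 lists, 71 were within 1.5-fold on the log2(FPKM + 1) scale, against 91.1% of all measured genes. None of the 72 was 1.5-fold or more lower on that scale, against 4.97%. These shares include genes that are not protein-coding. Of the 10625 measured protein-coding genes, 304 were 1.5-fold or more lower on that scale and 316 were 1.5-fold or more higher. The median of the 72 was -0.09, beside -0.03 for all measured genes. Below 0 were 49 of the 72, against 54.8% of all measured genes. Under the scaling that gave the fewest, 46 of the 72 were below 0, against 7354 of the 14215 measured genes. The gene of the 72 outside 1.5-fold was SLC1A5, a glutamine transporter, which was 1.74-fold higher (1.63 to 1.86). It had 2090 counts (36.5 FPKM) in AGS-GGT7 and 1572 counts (20.95 FPKM) in AGS-ctrl, and it overlaps another gene. In the plain ratio of FPKM, 1 of the 72, NDUFAF4, was 1.5-fold or more lower, against 10.1% of all measured genes. In that ratio 1, SLC1A5, was 1.5-fold or more higher, against 7.66%. EIF4E, the known MYC target described above as lower, was placed in another list and is not among the 72.

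The 31 nucleolar genes had a median of -0.10, with FPKM ratios from EXOSC5, an exosome subunit, at 0.770 (0.598 to 0.986) to NOLC1, a nucleolar scaffold, at 1.33 (1.24 to 1.42). NCL, which encodes nucleolin, was at 38.7 FPKM in AGS-GGT7 and 43.2 FPKM in AGS-ctrl, a ratio of 0.896 (0.860 to 0.933). The 29 metabolic genes had a median of -0.08. ODC1, the rate-limiting enzyme of polyamine synthesis, was at 25.95 FPKM in AGS-GGT7 and 27.2 FPKM in AGS-ctrl, a ratio of 0.953 (0.878 to 1.03). LDHA, lactate dehydrogenase A, had 11332 counts in AGS-GGT7 and 14886 counts in AGS-ctrl, a ratio of 0.998 (0.973 to 1.02), and its direction turns under rescaling. NDUFAF4, an assembly factor of complex I, had the lowest FPKM ratio of that list, 0.620 (0.467 to 0.816), from 78 counts in AGS-GGT7 and 165 counts in AGS-ctrl. The 12 measured cell cycle genes had a median of -0.12, with FPKM ratios from PTMA, which encodes prothymosin alpha, at 0.762 (0.709 to 0.819) to the cell cycle factor E2F2 at 1.25 (1.13 to 1.38). PTMA has a near-identical copy, PTMAP5, which limits its value.

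Among the MYC-activated genes with a RefSeq promoter, 15 of 58 held CACGTG, or 25.9%, against 7.73% of all genes of the table. The lists were drawn up from known targets, so this share is no independent finding. The 15 genes with the motif had a median log2 difference of -0.07, and the 43 without it -0.11. CDK4, the G1 kinase gene, held 3 such motifs at chr12:57752509-57752538, chr12:57752489-57752518 and chr12:57752394-57752423 (minus strand), parts of which GENCODE 29 counts as exonic. It is shown as the gene of these lists with the most E-boxes, written in capitals.
CDK4 distal: atgtcaagcggtCACGTGtgatagcaacag
CDK4 middle: atagcaacagatCACGTGgctgccatcgcc
CDK4 proximal: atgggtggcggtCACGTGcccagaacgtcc
CDK4 had 759 counts (9.84 FPKM) in AGS-GGT7 and 951 counts (9.41 FPKM) in AGS-ctrl, a ratio of 1.05 (0.949 to 1.15), within counting error, and it overlaps TSPAN31.

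Genes known to be lowered by MYC had a median of 0.08 over 13 measured members, with 9 above 0, against 45.2% of all measured genes, and 12 within 1.5-fold on the log2(FPKM + 1) scale, against 91.1%. THBS1, thrombospondin 1, was 1.8-fold higher (1.57 to 2.07), at 4.14 FPKM in AGS-GGT7 and 2.30 FPKM in AGS-ctrl. It overlaps AC037198.2 and FSIP1. GADD45A and CDKN1C, growth arrest genes, had ratios of 1.73 (1.35 to 2.23) and 1.58 (1.37 to 1.81). With THBS1 they make 3 of 13 past 1.5-fold higher in the plain ratio of FPKM, against 7.66% of all measured genes. In that ratio 0 were 1.5-fold lower, against 10.1%. NDRG1 had the lowest log2 difference of the list, with 4682 counts in AGS-GGT7 and 8130 counts in AGS-ctrl, a ratio of 0.755 (0.728 to 0.782). CCNG2 was also lower, with a ratio of 0.829 (0.712 to 0.965). CDKN1A, the inhibitor gene that MYC represses through MIZ1, had a ratio of 1.01 (0.938 to 1.08), and CEBPD, a differentiation factor gene, had the lowest ratio at 0.731 (0.564 to 0.944). Without genes that overlap another, the median of the list is -0.07.

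**Figure D5:**
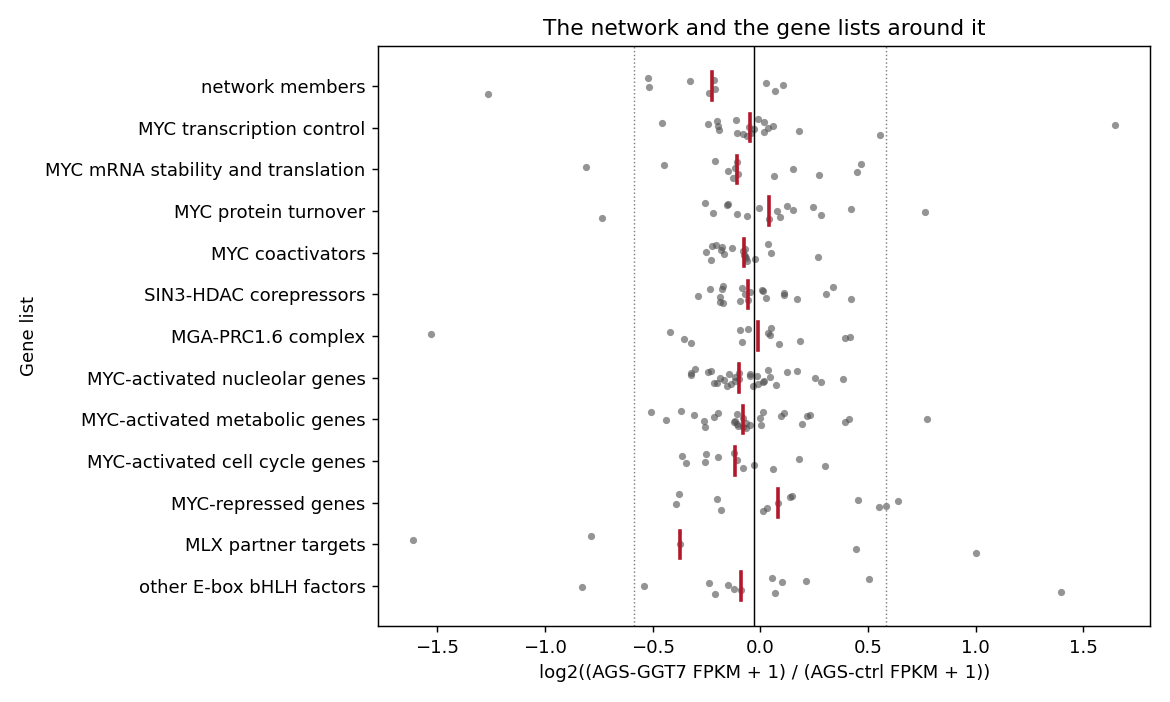
Log2 difference of (FPKM + 1), AGS-GGT7 over AGS-ctrl, of each measured gene (grey points) in the network and the lists around it, with the median of each list (red bar), the median of all measured genes (solid line, -0.03) and 1.5-fold (dotted lines). Medians of the MYC-activated lists lie between -0.12 and -0.08, and MYC is the point at -1.26 in the top row.

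The genes that MLX activates with MLXIP or MLXIPL went in both directions, with 5 of 9 measured. Of these, 3 were below 0, against 54.8% of all measured genes, and 2 were above 0, against 45.2%. Their median was -0.37, and it was -0.19 when genes under 1 FPKM were kept. TXNIP, the thioredoxin-interacting protein and best known target of this branch, had 4345 counts (78.9 FPKM) in AGS-GGT7 and 2812 counts (39.0 FPKM) in AGS-ctrl, 2.02-fold higher (1.93 to 2.12). ARRDC4, its relative, had 489 counts (11.7 FPKM) in AGS-GGT7 and 457 counts (8.32 FPKM) in AGS-ctrl, 1.40-fold higher (1.23 to 1.596). FASN and ACACA, fatty acid synthesis genes that answer to SREBP factors as well, were 3.12-fold (3.02 to 3.23) and 1.81-fold (1.72 to 1.90) lower. KLF10 had 1082 counts (18.7 FPKM) in AGS-GGT7 and 1859 counts (24.6 FPKM) in AGS-ctrl, a ratio of 0.763 (0.707 to 0.823). The promoter stretches of TXNIP at chr1:145996621-145996697 (minus strand) and ARRDC4 at chr15:97960463-97960528 (plus strand) are shown because both genes were above AGS-ctrl while MLX and MLXIP were below it.
TXNIP: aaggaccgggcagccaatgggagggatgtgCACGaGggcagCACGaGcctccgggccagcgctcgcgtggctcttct
ARRDC4: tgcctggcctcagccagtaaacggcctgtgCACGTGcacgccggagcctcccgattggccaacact
Capitals in TXNIP mark the fixed letters of CACGNG, then 5 bases of any kind, then CACGNG, sought on both strands and chosen after results were seen. That arrangement was found in 0.0586% of the 27305 genes, and with CACGTG at both places in 1 gene, and no network member held either.

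Other factors that bind E-boxes had a median of -0.09 over 13 measured genes, and 11 were within 1.5-fold on the log2(FPKM + 1) scale, against 91.1% of all measured genes. TFE3, a regulator of lysosomal genes, was 2.89-fold higher (2.62 to 3.19), at 17.9 FPKM in AGS-GGT7 and 6.19 FPKM in AGS-ctrl. SREBF1, which encodes the lipid synthesis regulator SREBP1, was 1.95-fold lower (1.79 to 2.13), at 4.44 FPKM in AGS-GGT7 and 8.65 FPKM in AGS-ctrl. USF1 was at 5.90 FPKM in AGS-GGT7 and 6.97 FPKM in AGS-ctrl, a ratio of 0.846 (0.734 to 0.974).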

How the data were processed

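RNA of AGS cells was sequenced in 2 libraries, 1 per group, and groups were taken from the sample titles. HISAT2, StringTie 1.3.0, GRCh38 and edgeR stand in the submitters' processing notes without roles. The sources used here give no annotation or strand setting. The authors deposited a count and an FPKM per gene, per the file headers. Per the file headers these are read counts made by the authors, and every intact one is whole, but the unit was recorded as an expected count for 1 broken line of shifted cells. That line and the empty row before it were left out of 23378. Symbols turned into dates were restored from the gene ID in 23 rows, and 31 shared symbols were summed. Of 23376 IDs, 23165 matched GENCODE 29, which gave positions, exons and overlaps of at least 100 exonic bases, strand disregarded. Of the 10 members 7 overlap another gene so defined. Copies were sought with BLAST 2.17.0 at 95% identity over 30% of the longest transcript, and no member had one.

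Differences are log2 values of (FPKM + 1), and folds are ratios of FPKM. Intervals are Clopper-Pearson for ratios and exact Poisson for levels. Both reflect counting error alone, as PCR copies were not told apart by molecular identifiers. For a gene at 0 the upper limit is 3 counts, which is 0.292 CPM in AGS-GGT7 and 0.223 CPM in AGS-ctrl. Calculations were tested on simulated data. The members and the 13 lists around them were chosen with earlier results of these data known. Named were all members, measured genes past 2-fold in FPKM ratio, the highest and lowest ratio of each list, 5 neighbours of MYC on each side, 5 genes nearest to it in level and further genes chosen after their values were seen. Alternatives were pseudocounts of 0.1 and 5, other limits on level, scaling by the median ratio, the upper quartile, edgeR 4.0.16 (TMM) and DESeq2 1.42.0, and handling of shared symbols and overlaps. Exonic-length FPKM and protein-coding genes alone were added after seeing the data. The work used R 4.3.3 and Python 3.11.15 with scipy 1.17.1, pandas 2.3.3, numpy 2.4.6 and matplotlib 3.10.9.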

Additional observations from a re-analysis of the deposited data

How the results depend on the processing

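MYC stayed lower under all settings tried, with a log2 difference of -1.34 at a pseudocount of 0.1 and -1.01 at a pseudocount of 5. The count of members 1.5-fold or more lower was 3 at a pseudocount of 0.1 and 1 under every other setting, because a smaller pseudocount shrinks low genes less. The median of the members was -0.79 at a limit of 5 FPKM, where only MYC and MGA remain, and -0.52 over the 3 members without an overlapping gene. The MYC share of network FPKM differed by -14.3 percentage points, AGS-GGT7 minus AGS-ctrl, and by -17.2 points with FPKM from the exonic length. The median of MYC-repressed genes was -0.07 without overlapping genes, against 0.08 with them. The 4 rescalings moved log2 values of all genes by at most 0.03. Of the other values recomputed under a setting, 283 stayed within a band or 1.5 times the count and 15 did not. For single genes the band was the counting interval. For a list median it was the median of the genes' own interval ends, which is no counting interval of the median. That band is wide, at -0.23 to 0.18 for all measured genes, so staying within it says little about a median. No paired analysis was possible because each group has 1 library. With 1 library per group, nothing here shows how far a second pair of libraries would differ.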
